A study of Homo sapiens with 3 samples.

Results

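MHC class I antigen presentation was followed through 9 genes in HCT116 cells, an established human colorectal cancer line. The genes were chosen by name: the heavy chains HLA-B, HLA-C and HLA-E, the light chain B2M, the peptide transporter subunits TAP1 and TAP2, the loading factor TAPBP, the transcriptional activator NLRC5, and the butyrophilin BTN3A2. Earlier results of these data were known at that choice, so shares and medians over the 9 genes describe them and test nothing. They are 9 of the 58302 genes in the deposited table, and all 9 passed the filter on low counts, as did 17263 genes in all. Cells received 1 of 2 small interfering RNAs (siRNAs) against the oxidase gene DUOX2, called siRNA 1 and siRNA 2, or a control siRNA, called NC. Total RNA was sequenced in 1 library per siRNA, with no separate untransfected group and no stated time after transfection or siRNA dose. Both DUOX2 siRNAs make up the siDUOX2 group (n = 2), and NC had n = 1, so the control carries no measure of its own spread. Nothing in the labels says that the libraries came from separate cultures, so the p-values measure only spread between the siRNA 1 and siRNA 2 libraries. The tool used, edgeR, takes that spread from the gene and, with more weight, from all genes together (1 residual degree of freedom against a prior of 4.66). An SE from edgeR is thus not the gene's own spread between those libraries.

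Class I molecules carry peptides from the inside of the cell to its surface, where CD8 T cells and natural killer cells read them. A heavy chain pairs with beta-2-microglobulin, the product of B2M, in the endoplasmic reticulum. The TAP1 and TAP2 proteins form the pump that brings peptides in, and tapasin, the product of TAPBP, bridges that pump to the waiting heavy chain. NLRC5 acts as the activator of class I promoters through the same promoter complex of RFX, CREB/ATF and NF-Y factors that serves CIITA at class II promoters. BTN3A2 belongs to the BTN3A family, which is known for its part in the recognition of phosphoantigens by gamma-delta T cells.

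The libraries held 19130768 counts with siRNA 1, 18832672 with siRNA 2 and 17589502 in NC, so that 3 counts, the limit a count of 0 allows, were worth 0.157 to 0.171 CPM (the count divided by the total of its library and scaled to 1e+06). DUOX2 itself had 2 counts with siRNA 1, 0 with siRNA 2 and 2 in NC, which lies under that limit and gives no check of the labels. Epithelial markers (EPCAM, KRT8, KRT18, KRT19, CDH1, VIL1, CLDN7 and CDX1) summed to 63426 counts with siRNA 1, 92073 with siRNA 2 and 92982 in NC, with CDX1 at 0. Of the exon bases of VIL1, 44.0% lie opposite USP37, which had 1171, 1139 and 869 counts in that order. The count of VIL1 is therefore uncertain. Immune markers summed to 51, 53 and 93 counts in the same order, with PTPRC and NKG7 at 0 in every library. Within that list CD68 had 17, 32 and 56 counts, CD14 had 5, 5 and 24, LYZ had 16, 7 and 4, and CD3E had 13, 9 and 9. CD68 shares 81.7% of its exon bases with AC016876.2, which had 826, 942 and 251 counts, so the count of CD68 is uncertain. Stromal markers summed to 49, 70 and 75 counts with DCN and PECAM1 at 0, and retinal markers, listed because the labels' protocol speaks of retinas, summed to 9, 4 and 10 counts with SAG and CRX at 0. Most stromal counts were of COL1A1, at 39, 57 and 57, and most retinal counts were of PDE6A, at 6, 4 and 10. The part of other cells in the class I values was not tested.

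The promoter sequences are shown first because the class I genes are known for a shared set of promoter elements. RefSeq windows from 250 bases before to 50 bases after the annotated start (build GRCh38.p14) were at hand for 7 of the 9 genes, all but HLA-E and NLRC5. Each stretch below runs 5′ to 3′ on the gene's strand and stops at or before the start. Capitals mark matches, on either strand, to an interferon regulatory factor site (AANNGAAA), a CCAAT box, a cyclic AMP response element half-site (TGACG) or, in BTN3A2, the core of an X1 box (CCNAGCAAC). Overlapping matches run together.
HLA-B (chr6:31357223-31357342, minus strand): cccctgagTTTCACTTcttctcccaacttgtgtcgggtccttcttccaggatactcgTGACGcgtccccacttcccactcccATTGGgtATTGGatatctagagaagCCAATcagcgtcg
HLA-C (chr6:31272136-31272292, minus strand): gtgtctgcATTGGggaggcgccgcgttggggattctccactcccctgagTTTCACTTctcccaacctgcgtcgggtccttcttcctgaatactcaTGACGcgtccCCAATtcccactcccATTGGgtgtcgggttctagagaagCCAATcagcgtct
B2M (chr15:44711367-44711480, plus strand): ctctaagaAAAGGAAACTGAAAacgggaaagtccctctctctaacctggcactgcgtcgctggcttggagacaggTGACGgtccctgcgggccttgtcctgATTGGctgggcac
TAP1 (chr6:32853817-32853954, minus strand): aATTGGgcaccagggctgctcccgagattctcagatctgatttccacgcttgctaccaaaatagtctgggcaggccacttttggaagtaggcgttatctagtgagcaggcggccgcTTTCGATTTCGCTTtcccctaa
TAP2 (chr6:32838762-32838809, minus strand): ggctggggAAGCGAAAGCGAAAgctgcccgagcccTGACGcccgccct
TAPBP (chr6:33314079-33314104, minus strand): ttggaggaAAGTGAAAGTGAAAggag
BTN3A2 (chr6:26365091-26365180, plus strand): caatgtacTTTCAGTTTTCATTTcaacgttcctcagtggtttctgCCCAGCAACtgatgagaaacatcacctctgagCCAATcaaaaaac

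An interferon regulatory factor match was present in the first window of all 7 genes, against 22.8% of 35116 RefSeq promoter windows of this length. HLA-B and HLA-C have the same layout, with this match at 155 and 151 bases before the start, a TGACG at 106 and 105, and a forward CCAAT at 56 in each. Their windows are 88.5% identical (269 of 304 aligned positions), while every other pair among the 7 lies between 43.3% and 52.3%. B2M, TAP2 and TAPBP each carry a pair of interferon regulatory factor matches in tandem, and TAP1 and BTN3A2 carry such a pair in the other orientation. CCAAT matches occur in 34.6% and TGACG matches in 24.6% of all windows. The CCNAGCAAC match of BTN3A2 lies 62 bases before the start and was searched for after the window had been read. It occurs in 1.76% of all windows and in none of the other 6 genes. Second windows exist for TAP1 and BTN3A2 and hold none of these letters. Such matches describe letters and do not show that a factor binds.

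Counts in the siDUOX2 libraries lay below NC with both siRNAs for 7 of the 9 genes and above NC with both for B2M and BTN3A2. Among all genes tested, 41.6% were lower with both and 41.9% higher with both. None of the 9 passed edgeR's quasi-likelihood test at a Benjamini-Hochberg adjusted p of 0.05, a test that 0.0579% of all genes passed (10 of 17263). At an unadjusted p under 0.05 there were 5 of the 9, namely HLA-B, HLA-C, TAP1, NLRC5 and BTN3A2, against 26.0% of all genes. Only BTN3A2 was at least 2-fold higher with both siRNAs, a size that 4.0% of genes reached, and none of the 9 was at least 2-fold lower with both, against 5.05% of genes. The median of the mean log2 fold change over the 9 genes was -0.59, beside -0.0019 over all genes tested. In bulk RNA, fewer cells that express a gene and less RNA per cell cannot be told apart.

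**Figure D1:**
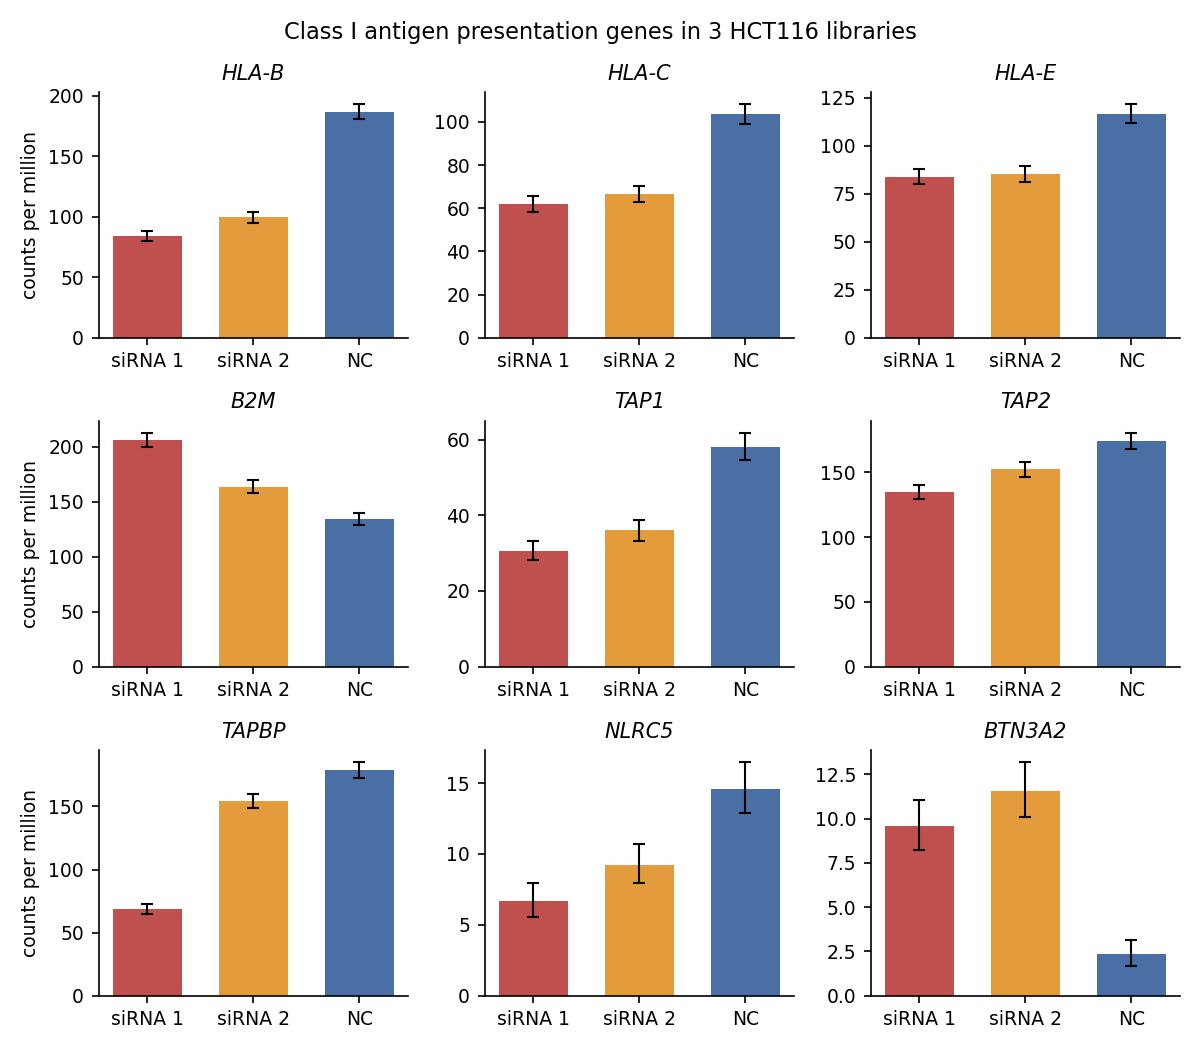
CPM of the 9 class I genes with siRNA 1, siRNA 2 and NC, 1 library each, with error bars for the 95% Poisson interval of the count (counting error only). NC is the highest bar for 7 genes, B2M is highest with siRNA 1 and BTN3A2 is lowest in NC.

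HLA-B, a classical heavy chain (ENSG00000234745, chromosome 6, 31269491 to 31357188, minus strand, GRCh38), had 1608 counts with siRNA 1 and 1873 with siRNA 2, against 3285 in NC. These are 84.1 and 99.5 CPM, against 187 CPM in NC. Both siRNA libraries lay well below NC and differed little from each other. After TMM scaling, the method edgeR uses to make libraries comparable, the ratio to NC was 0.496 (95% interval 0.467 to 0.527, counting error only) with siRNA 1 and 0.555 (0.524 to 0.588) with siRNA 2. The log2 fold change was -0.93 ± 0.19 (SE) with an edgeR adjusted p of 0.113. DESeq2 gave HLA-B an adjusted p of 0.0257, the only one of the 9 genes past the threshold with that tool, under which 5.54% of the 10234 genes with an adjusted p passed.

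HLA-C, the classical heavy chain best known as a ligand of killer-cell immunoglobulin-like receptors (ENSG00000204525, chromosome 6, 31268749 to 31272130, minus strand), had 1183 and 1254 counts with siRNA 1 and siRNA 2, against 1822 in NC. Its log2 fold change was -0.59 ± 0.20 (SE; edgeR adjusted p = 0.154). HLA-E, the nonclassical chain read by the NKG2A receptor of natural killer cells (ENSG00000204592, chromosome 6, 30489467 to 30494205, plus strand), had 1605 counts with each siRNA, against 2054 in NC. Its log2 fold change was -0.37 ± 0.19 (SE; edgeR adjusted p = 0.275). The order of the lower values was thus HLA-B, HLA-C and HLA-E, with the same order under siRNA 1 and siRNA 2.

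The 3 heavy chains together had 4396 counts with siRNA 1 and 4732 with siRNA 2, against 7161 in NC, a TMM-scaled ratio of 0.622 (0.599 to 0.646) and 0.644 (0.620 to 0.668). Over all 6 class I heavy chains of chromosome 6 the sums were 7702 and 9102, against 12155 in NC, with ratios of 0.642 and 0.729. With 12 class I pseudogenes added they were 7796 and 9164, against 12267 in NC. The sums, which do not depend on how reads that fit several of these genes are divided among them, were thus lower than NC in both siRNA libraries. Of the distinct 50-base stretches in their transcripts, 2.72% of HLA-B, 5.38% of HLA-C and 4.34% of HLA-E also occur in another gene. HLA genes are highly polymorphic, and the share of reads lost where the alleles of the line differ from the reference was not measured. The HLA-B gene as annotated reaches into HLA-C, with 35 shared exon bases, and 17.8% of its exon bases lie opposite AL671883.2, which had 5, 2 and 2 counts with siRNA 1, siRNA 2 and NC.

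B2M, the light chain shared by all class I heavy chains (ENSG00000166710, chromosome 15, 44711477 to 44718877, plus strand), stood on the other side of NC. It had 3949 counts with siRNA 1 and 3084 with siRNA 2, against 2357 in NC, or 206 and 164 CPM, against 134 CPM in NC. Both siRNA libraries lay above NC, and siRNA 1 lay above siRNA 2 by a ratio of 1.33 (1.27 to 1.40). The log2 fold change was 0.57 ± 0.24 (SE; edgeR adjusted p = 0.205). Per 100 counts of HLA-B, HLA-C and HLA-E together, B2M had 89.8 counts with siRNA 1 and 65.2 with siRNA 2, against 32.9 in NC. The log2 fold change of B2M exceeded the mean of the 3 heavy chains by 1.41 with siRNA 1 and by 0.96 with siRNA 2. No 50-base stretch of B2M occurs in another gene.

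TAP1 (ENSG00000168394, chromosome 6, 32845209 to 32853978, minus strand) and TAP2 (ENSG00000204267, chromosome 6, 32821833 to 32838780, minus strand) encode the subunits of 1 transporter and lie close together. TAP1 had 584 counts with siRNA 1 and 678 with siRNA 2, against 1023 in NC, and a log2 fold change of -0.71 ± 0.22 (SE; edgeR adjusted p = 0.145). TAP2 had 2579 and 2867 counts with siRNA 1 and siRNA 2, against 3066 in NC, and a log2 fold change of -0.18 ± 0.19 (SE; edgeR adjusted p = 0.551). Both siRNA libraries lay below NC for each gene, with a ratio to NC of 0.578 and 0.645 for TAP1 and of 0.852 and 0.911 for TAP2. For TAP2, 32.3% of exon bases are shared with the read-through gene AL669918.1, which had 0, 3 and 0 counts with siRNA 1, siRNA 2 and NC. For TAP1, 9.49% lie opposite PSMB8-AS1, which had 22, 56 and 70 counts in that order. Whether reads were counted by strand is not known, so reads of such opposite pairs cannot be told apart.

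TAPBP (ENSG00000231925, chromosome 6, 33299694 to 33314387, minus strand) was the gene on which the siRNA libraries differed most. It had 1312 counts with siRNA 1 and 2905 with siRNA 2, against 3151 in NC. The siRNA 1 library alone was far below NC, at a ratio of 0.422 (0.395 to 0.450), while siRNA 2 stood at 0.898 (0.853 to 0.945). The ratio of siRNA 1 to siRNA 2 was 0.470 (0.440 to 0.502), beside 0.765 to 1.33 for the other 8 genes. The log2 fold change of both together was -0.60 ± 0.43 (SE; edgeR adjusted p = 0.393), with the largest error of the 9 genes.

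NLRC5 (ENSG00000140853, chromosome 16, 56989485 to 57083531, plus strand) had 128 counts with siRNA 1 and 174 with siRNA 2, against 257 in NC. The log2 fold change was -0.78 ± 0.30 (SE; edgeR adjusted p = 0.178). Both libraries lay below NC, at a ratio of 0.505 (0.405 to 0.626) with siRNA 1 and 0.659 (0.541 to 0.802) with siRNA 2. Its counts were low, and its intervals are wide.

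BTN3A2 (ENSG00000186470, chromosome 6, 26365159 to 26378320, plus strand) had 183 counts with siRNA 1 and 218 with siRNA 2, against 41 in NC. These are 9.57 CPM (8.23 to 11.1) and 11.6 CPM (10.1 to 13.2), against 2.33 CPM (1.67 to 3.16) in NC. The Poisson intervals of the siRNA libraries overlap each other and lie above that of NC. The ratio to NC was 4.52 (3.21 to 6.51) with siRNA 1 and 5.18 (3.70 to 7.42) with siRNA 2. The log2 fold change was 2.27 ± 0.34 (SE; edgeR unadjusted p = 0.00072, adjusted p = 0.105), and DESeq2 gave no adjusted p for this gene. By the smaller of its fold changes, 58 of 17263 genes were further above NC. MYC, a gene that passed the edgeR test, had 2447 and 2709 counts with siRNA 1 and siRNA 2, against 281 in NC, for comparison.

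Among the other butyrophilins, 5 of 8 were tested, none passed and BTN3A3 was at least 2-fold higher with both siRNAs. BTN3A3, the nearest relative of BTN3A2 in sequence, had 66 and 74 counts with siRNA 1 and siRNA 2, against 28 in NC (log2 fold changes 1.20 and 1.30). Of the distinct 50-base stretches of BTN3A2, 14.0% occur in another gene and 10.7% in BTN3A3, so the division of reads between them is uncertain. BTN3A1, the family member that binds phosphoantigens, is named here after its values were seen, and had 33 and 39 counts, against 47 in NC. BTN2A2 had 253 and 195 counts, against 155 in NC. BTN2A3P, a pseudogene, had 89 and 65 counts, against 70 in NC. The median log2 fold change of the 5 was 0.11.

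Levels can be compared between genes only per length, for which counts were divided by kilobases of merged exons and by the library total scaled to 1e+06 (RPKM). In NC the order was HLA-B at 61.2 RPKM, HLA-C at 41.3, HLA-E at 39.3, TAPBP at 35.4, TAP2 at 27.3, B2M at 22.0, TAP1 at 12.1, NLRC5 at 1.18 and BTN3A2 at 0.331. With siRNA 1 and siRNA 2, B2M stood at 34.0 and 26.9 RPKM, HLA-B at 27.5 and 32.6, HLA-E at 28.2 and 28.6, and HLA-C at 24.7 and 26.6. TAPBP stood at 13.6 and 30.5. The ranges of B2M, HLA-B, HLA-E and TAPBP over the siRNA libraries overlap, so no order among those 4 is given, and the range of TAPBP also spans HLA-C and TAP2. BTN3A2 stood at 1.36 and 1.64 RPKM, above NLRC5 at 0.540 and 0.746, an order opposite to that in NC. The length used sets these levels: the merged exons of B2M span 6079 bases, and a shorter transcript would give a higher level.

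The fold changes of all genes ran with the GC content of their transcripts. Over the 2483 genes under 40% GC the median of the log2 fold change stood at 0.58 for siRNA 1 and 0.45 for siRNA 2, and over the 2334 genes of at least 60% GC at -1.01 and -0.76. The 9 class I genes have a median GC content of 57.5%, against 48.5% over all genes tested. HLA-C at 62.7%, HLA-B at 59.0%, NLRC5 at 58.0%, TAPBP at 57.6% and TAP1 at 57.5% lie on the GC-rich side, and B2M at 40.6% on the other. HLA-E lies between them at 54.8%. TAP2 at 49.1% and BTN3A2 at 48.5% lie where the median fold change was near 0. The cause of the trend was not tested.

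**Figure D2:**
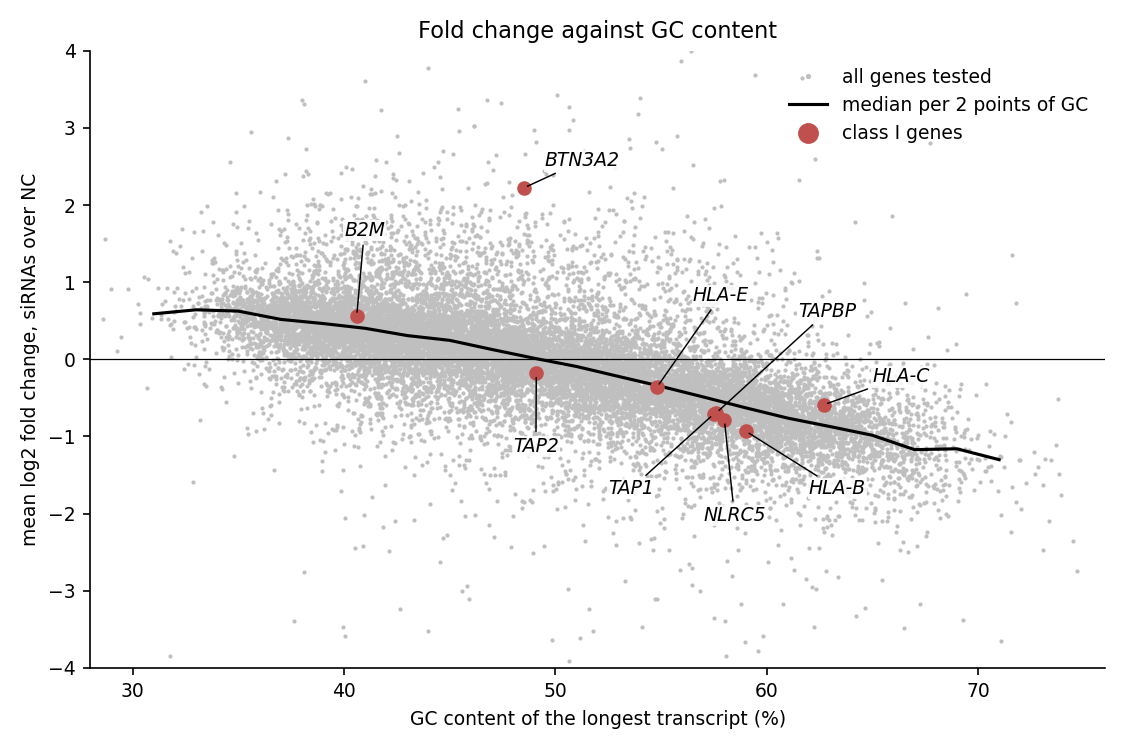
Mean log2 fold change of siRNA 1 and siRNA 2 over NC (vertical axis) against the GC content in percent of each gene's longest transcript, with grey points for all genes tested, red points for the 9 class I genes and a line for the median per 2 points of GC (bins of at least 20 genes); 31 genes fall outside the axes. BTN3A2 stands apart from genes of its GC content, while HLA-E, B2M, TAP1, TAP2, TAPBP and NLRC5 lie between the quartiles of genes of like GC.

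Set beside genes within 1 percentage point of the same GC content, 6 of the 9 lay between the quartiles, namely HLA-E, B2M, TAP1, TAP2, TAPBP and NLRC5. HLA-B, with a mean log2 fold change of -0.93, lay just under the quartiles of 998 such genes (-0.86 to -0.37), with 20.2% of them lower. HLA-C, at -0.59, lay above the quartiles of 667 such genes (-1.11 to -0.62), with 77.4% of them lower. BTN3A2 lay above 99.5% of 1233 genes of like GC content.

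With the GC trend subtracted, the median of the 9 genes was -0.16, beside 0.0033 over all genes. Then 4 genes were lower with both siRNAs (HLA-B, TAP1, TAP2 and NLRC5), against 35.1% of genes, and 2 were higher with both (HLA-C and BTN3A2), against 37.4%. The other 3 had opposite signs with siRNA 1 and siRNA 2. HLA-B was then at -0.30 and -0.31, HLA-C at 0.37 and 0.16, TAP1 at -0.19 and -0.17, and TAP2 at -0.23 and -0.14. NLRC5 was at -0.34 and -0.10, and HLA-E at 0.06 and -0.09. The gap between B2M and the mean of the 3 heavy chains shrank to 0.26 with siRNA 1 and 0.07 with siRNA 2. TAPBP was at -0.64 with siRNA 1 and 0.31 with siRNA 2, so that its difference between the libraries was nearly as large as before.

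BTN3A2 was at 2.08 with siRNA 1 and 2.28 with siRNA 2 after the subtraction, nearly as measured, and again the only 1 of the 9 at least 2-fold higher with both, against 3.35% of genes. None was at least 2-fold lower, against 1.4% of genes. BTN3A3 was at 1.04 and 1.18. In an edgeR fit with the trend as an offset the adjusted p of BTN3A2 was 0.286 and no gene passed.

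**Figure D3:**
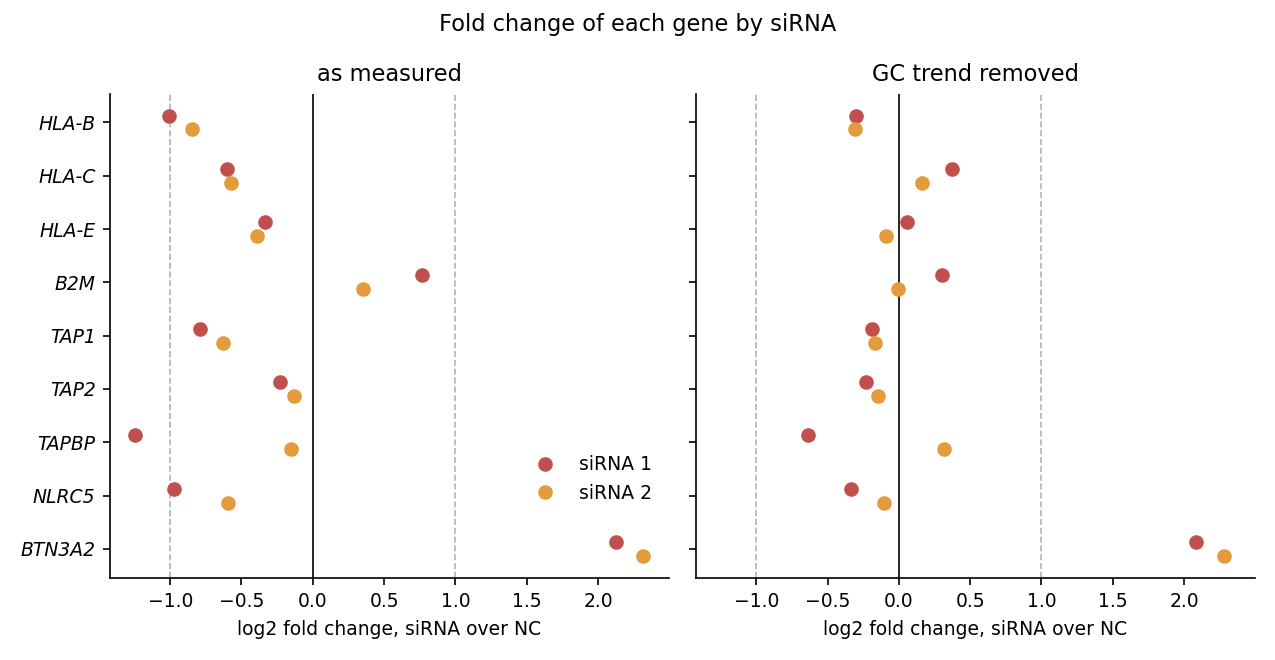
Log2 fold change over NC of each class I gene with siRNA 1 and siRNA 2, as measured (left) and with the GC trend removed (right); dashed lines mark 2-fold and each point is 1 library against 1 library, with no replicate error. With the trend removed, BTN3A2 stays at 2.08 and 2.28, and the other genes lie between -0.64 and 0.37.

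Of 85 other genes of the pathway tested in 9 lists, none passed the edgeR test. An unadjusted p under 0.05 was found for 18 of them (21.2%, against 26.0% of all genes tested). In DESeq2, PVR and NECTIN2 passed, 3.51% of the 57 with an adjusted p, against 5.54% of all genes. Among 10 tested heavy chains and class I-like chains outside the 9 genes, 8 were lower with both siRNAs and 1 higher, with a median log2 fold change of -0.43 (-0.22 with the GC trend removed). HLA-F, a nonclassical chain, had 73 and 117 counts with siRNA 1 and siRNA 2, against 196 in NC (GC trend removed, -0.77 and -0.30). Of its exon bases, 12.3% lie opposite HLA-F-AS1, which had 115 and 103 counts, against 104 in NC, so the count of HLA-F is uncertain. FCGRT, the heavy chain of the neonatal Fc receptor, had 105 and 144, against 255 in NC (GC trend removed, -0.27 and -0.12). HFE, the class I-like regulator of iron uptake, had 51 and 67, against 82 in NC (GC trend removed, -1.01 and -0.60). Both siRNA libraries lay below NC for each of these, and none was 2-fold lower with both. Of 4 tested class I pseudogenes, HLA-H was 2-fold lower with both, at 28 and 28 counts, against 68 in NC (GC trend removed, -0.15 and -0.46).

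Of 6 immunoproteasome subunits and activators, 5 were lower with both siRNAs and none higher, with a median of -0.32 (-0.17 with the GC trend removed). These genes encode catalytic subunits and caps of the proteasome. PSMB10 had 82 and 126 counts with siRNA 1 and siRNA 2, against 192 in NC (GC trend removed, -0.40 and -0.03). It shares 34.8% of its exon bases with AC040162.1, so its count is uncertain. PSMB8 had 447 and 612 counts, against 720 in NC (GC trend removed, -0.35 and -0.03), and PSMB9 had 156 and 171, against 208 in NC (-0.54 and -0.44). The last 2 lie beside TAP1 and TAP2 and overlap each other and PSMB8-AS1.

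Of 15 peptide-loading and trimming genes, 6 were lower and 7 higher with both siRNAs, with a median of 0.07 (-0.02 with the GC trend removed). THOP1, a cytosolic peptidase that destroys class I peptides, had 869 and 1116 counts with siRNA 1 and siRNA 2, against 1773 in NC, with log2 fold changes of -1.01 and -0.71 that became -0.0029 and 0.054 with the GC trend removed. TPP2, a peptidase that trims proteasome products, had 3722 and 3024 counts, against 2225 in NC (GC trend removed, 0.26 and 0.02). NPEPPS, the puromycin-sensitive aminopeptidase, had 1417 and 2987 counts, against 1331 in NC, so that the siRNA 2 library alone stood apart (GC trend removed, -0.51 and 0.64). NPEPPS has pseudogene copies, and its count is uncertain.

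Of 26 regulators, 8 were lower and 15 higher with both siRNAs, with a median of 0.15 (0.02 with the GC trend removed). IRF3, a transcription factor of the interferon response, had 440 and 476 counts with siRNA 1 and siRNA 2, against 844 in NC (GC trend removed, -0.21 and -0.32). Of its exon bases, 19.3% lie opposite BCL2L12, which had 227 and 283 counts, against 477 in NC, so the count of IRF3 is uncertain. ATF1, of the CREB/ATF family that takes part in the class I promoter complex, had 1709 and 1985, against 1113 in NC (GC trend removed, -0.06 and 0.26). RFXAP, a subunit of the RFX complex at class I and class II promoters, had 515 and 408, against 279 in NC (GC trend removed, 0.60 and 0.27). CIITA, the class II activator, was the 1 member at least 2-fold lower with both, at 10 and 10 counts, against 23 in NC (GC trend removed, -0.80 and -0.91). The 6 tested class II genes had a median of -0.29 (-0.20 with the GC trend removed), with 5 lower with both, against 41.6% of all genes. CD74, the invariant chain, had 550 and 482 counts, against 824 in NC (GC trend removed, 0.13 and -0.28). HLA-DQB1 had 97 and 116, against 133 in NC, HLA-DMA had 39 and 51, against 53, and HLA-DOB had 4 and 4, against 11. HLA-DOB shares 29.7% of its exon bases with AL669918.1, which had 0 and 3 counts, against 0 in NC.

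Genes that act on class I at the surface, or on the cells that read it, were listed as well. SUSD6, TMEM127 and WWP2, which together direct class I molecules to degradation, had a median of -0.35 (0.17 with the GC trend removed). MARCH1, MARCH4 and MARCH9 were on the same list under old and new symbols, and none matched a name in the deposited data. Some deposited names stand as dates, such as 8-Mar, so their lack of a match does not show that they were absent. TMEM127 had 1015 and 1261 counts with siRNA 1 and siRNA 2, against 1801 in NC, WWP2 had 803 and 867, against 1060, and SUSD6 had 565 and 563, against 574. With the GC trend removed TMEM127 was at -0.49 and -0.31, WWP2 at 0.21 and 0.13, and SUSD6 at 0.23 and 0.11. Of 10 tested ligands of natural killer cells and checkpoint receptors, 6 were lower and 3 higher with both siRNAs, and the median was -0.30 (-0.42 with the GC trend removed). PVR, a ligand of DNAM-1 and TIGIT, was at least 2-fold lower with both siRNAs, at 526 and 668 counts, against 1550 in NC (log2 fold changes -1.54 and -1.25). With the GC trend removed it was at -1.01 and -0.85. NECTIN2, a ligand of the same receptors, had 827 and 935 counts, against 1750 in NC, with log2 fold changes of -1.06 and -0.94 that became -0.32 and -0.37 with the GC trend removed. ULBP3, a ligand of NKG2D, had 125 and 137, against 241 in NC (GC trend removed, -0.49 and -0.51).

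**Figure D4:**
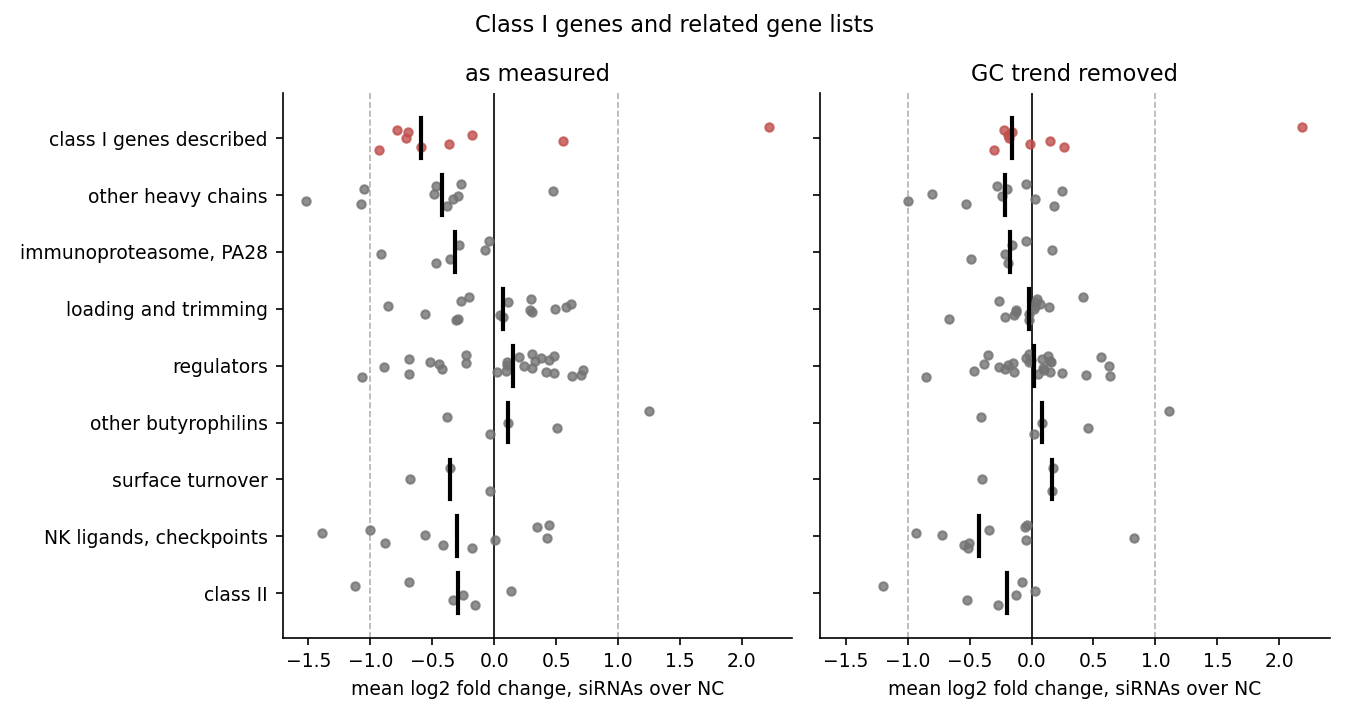
Mean log2 fold change of siRNA 1 and siRNA 2 over NC for the 9 class I genes (red) and for genes of 8 related lists (grey), as measured (left) and with the GC trend removed (right), where each point is a gene, a black bar is the list's median and dashed lines mark 2-fold. The median of the 9 genes is -0.59 as measured and -0.16 with the trend removed, and BTN3A2 is the rightmost red point in both panels.

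Because 7 of the 9 genes lie on chromosome 6, their neighbours were also read. Of 94 genes tested whose start lies within 250 kb of the start of 1 of the 9, 51 were lower and 25 higher with both siRNAs, where 41.6% of all genes were lower and 41.9% higher, and none passed the edgeR test. In that set 16 had an unadjusted p under 0.05 (17%, against 26.0% of all genes). RANP1 and EIF3J, the second named after its values were seen, passed in DESeq2, 3.7% of the 54 with an adjusted p, against 5.54% of all genes. Their median was -0.22 as measured and 0.03 with the GC trend removed. Among neighbours with at least 50 counts in a library the highest was RANP1, a processed pseudogene near HLA-E whose reads may belong to its parent gene. It had 746 and 760 counts with siRNA 1 and siRNA 2, against 298 in NC, and BTN3A3 came next under the same limit. The lowest by that limit were NRM, near HLA-E, which had 68 and 285 counts, against 345 in NC, and ZBTB22, near TAPBP, which had 95 and 139, against 232 in NC. NRM, like TAPBP, was thus low with siRNA 1 alone. The share of all genes low with siRNA 1 alone was not counted, and a link between NRM and TAPBP was not tested.

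The siRNA strands are given because a strand can act on other transcripts through its seed, bases 2 to 8, shown here in capitals. The complement of a seed occurs in the 3′ untranslated region of a class I gene for 3 of the 4 DUOX2 siRNA strands:
siRNA 1, antisense: aACCACUAuguuguccucc
siRNA 2, sense: cCAUGAUGcgauccuucau
siRNA 2, antisense: aUGAAGGAucgcaucaugg
A site for the antisense strand of siRNA 1 is present in TAP2, as it is in 8.2% of 13031 genes. A site for the sense strand of siRNA 2 is present in B2M, as in 11.1% of genes. Sites for the antisense strand of siRNA 2 are present in TAP2 and BTN3A2, as in 16.3% of genes. Neither strand of the control siRNA and not the sense strand of siRNA 1 has a site in the 9 genes. An effect of the seeds was not tested.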

How the data were processed

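Per the labels, total RNA of HCT116 cells was made into TruSeq libraries, and the labels' protocol also speaks of retinas. The authors deposited raw read counts and FPKM per gene for the 3 libraries. The submitters' processing notes name Bowtie 0.12.2 and, as builds, GRCh38 and also mm8, without a role for any of them. Gene coordinates were those of GRCh38, identical to GENCODE 29 for 97.6% of 58039 genes. For the counting of reads and its use of strand, the tool is not given in the sources used here. A length underlies each FPKM; it equals the sum of all distinct exons, overlaps included, for 92.2% of 13597 genes, so levels per length were recomputed from merged exons.

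Counts were tested with edgeR 4.0.16 in R 4.3.3 (TMM, filterByExpr with a minimum count of 10, glmQLFit, glmQLFTest, Benjamini-Hochberg threshold 0.05, 1 residual degree of freedom), a procedure tested on simulated data. For each siRNA the fold change is its log2 CPM minus that of NC (prior count 2). The GC trend was a lowess curve (fraction 0.3) on the GC content of the longest transcript, known for 17209 genes. Intervals are at 95% and cover counting error only. DESeq2 1.42.0 and limma 3.58.1 were alternatives. Promoter identity came from global alignment with Biopython 1.88. Sequences are from RefSeq and, for siRNAs, the labels.

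The members and lists were chosen with earlier results of these data known. Named genes were the 9 genes, in each list the 3 with the largest mean fold change among those with at least 50 counts in a library and those at least 2-fold away with both siRNAs, the 2 highest and 2 lowest neighbours, genes overlapping a member, and MYC. Exceptions are stated. List genes on which the rule did not fall stand in the counts.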

Additional observations from a re-analysis of the deposited data

How the results depend on the processing

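The 10 genes called by edgeR became 567 with DESeq2, 9 with total count scaling and 10 with RLE size factors. They became 0 with no filter on low counts, with a minimum of 1 CPM per library, in limma fits to log2(FPKM + 0.1) or log2(FPKM + 1), and with the GC trend as an offset. Of the 9 class I genes, 1 (HLA-B) was called by DESeq2 and 0 in every other fit listed. On the log2(FPKM + 1) scale, which compresses low values, 0 of the 9 were at least 2-fold higher and BTN3A2 stood at 0.60. The number at least 2-fold lower ranged from 0 without siRNA 1 to 2 without siRNA 2 (HLA-B and TAPBP), and the number at least 2-fold higher was 1 in each case. The median over the 9 genes ranged from -0.60 to -0.39 with 1 siRNA left out and was -0.16 with the GC trend removed. HLA-C was at 0.26 with the GC trend removed, the reverse of its direction as measured; the cause was not tested. Total count scaling moved the median of all genes by -0.13 with siRNA 1 and by -0.06 with siRNA 2, and no class I gene turned round under it. Leaving out a siRNA library leaves no residual degree of freedom, so those values have no test, and the single control could not be left out. No paired analysis was possible because NC had only 1 library. With 41 counts in NC, the fold change of BTN3A2 is limited by depth to the interval given for it.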
